A study of Homo sapiens with 12 samples.

Results

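Gene expression after siRNA against PRMT1 (siPRMT1) was compared with expression after a control siRNA in K562 cells that express AE9a, on 6 of the 12 Illumina BeadChip arrays of the series. By its title, the study asked whether PRMT1 takes part in gene activation and transformation by the fusion AML1-ETO. K562 is a human erythroleukemia cell line. AML1-ETO is made in acute myeloid leukemia when RUNX1 is joined to RUNX1T1, and AE9a is a shorter product of alternative splicing of that fusion. Members were every gene with 1 annotated symbol whose probe passed a filter on dim signal, 13929 genes, and the groups were the 3 arrays titled AE9a siPRMT1 and the 3 titled AE9a control. Both groups received 3 µg of siRNA by nucleofection in serum-supplemented RPMI medium and were harvested at 24 h. Both carry the AE9a transgene, and the labels give no other difference than the siRNA. One text field calls these cells wild type and AE9a at once, and the genotype field and the titles give AE9a. The remaining 6 arrays hold wild type K562 cells given siPRMT1 or the control siRNA at the same amount and time. The labels do not name the promoter of the AE9a construct, the siRNA sequences or whether the line is 1 clone. They also do not say whether replicates were separate cultures, so p-values cover the spread among these samples only, and it may be technical.

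PRMT1 transfers methyl groups to arginines of histone H4 and of many RNA-binding proteins, and it is the main source of asymmetric dimethylarginine in mammalian cells. AML1-ETO binds DNA through the RUNX1 domain, and its AE9a form lacks the C-terminal part of the ETO portion. Several of the programmes described here have textbook regulators. The transcription factor ATF4 drives amino acid synthesis and tRNA charging genes in the integrated stress response, MYC drives ribosome assembly genes, HSF1 drives heat shock genes, and MTF1 drives metallothionein genes. The protein activity of these regulators was not measured here.

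Median raw intensity lay between 60.5 and 67.8 on the 6 AE9a arrays. Pearson's r between arrays of 1 group, across probes, ran from 0.993 to 0.998. All 9 measured K562 and erythroid marker genes were above background on all 6 arrays. Of the markers of other cells, 5 of 9 lymphoid, 7 of 11 myeloid and 6 of 10 stromal or epithelial genes were above background on none. On all 6 arrays, 2 lymphoid, 4 myeloid and 2 stromal or epithelial genes were above it. No marker of these 3 lists that was tested was called changed. The summed raw intensity of the lymphoid list was 1271 to 1541 on siPRMT1 arrays, against 1061 to 1118 on control arrays. That of the myeloid list was 2360 to 3876 on siPRMT1 arrays, against 2028 to 2683 on control arrays. The stromal and epithelial list summed to 5034 to 5620 on siPRMT1 arrays, against 5165 to 5724 on control arrays. The lymphoid difference was carried by CD3D, a T cell receptor chain (median raw intensity 995.9 on siPRMT1 arrays, against 580.1 on control arrays), and the myeloid one by CD68, a lysosomal protein of macrophages (2081 on siPRMT1 arrays, against 776.6 on control arrays). Neither was called (adjusted p = 0.355 and 0.404). The myeloid markers MPO, ELANE, PRTN3 and AZU1 were above background on no AE9a array, while CD14, LYZ, FCGR3B and CD68 were above it on all 6. LYZ had a median raw intensity of 878.6 on siPRMT1 arrays, against 780.7 on control arrays. EPCAM and KRT19, of the epithelial list, were also above background on all 6. Their medians were 3248.4 and 1668.5 on siPRMT1 arrays, against 3345.8 and 1659.6 on control arrays. The part of these levels in the results below was not tested.

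PRMT1, the target of the siRNA, was measured by 1 probe. Its normalised intensity was 475, 491 and 572 on the siPRMT1 arrays, against 792, 821 and 725 on the control arrays. All 3 siPRMT1 arrays lay below all 3 control arrays. Such separation, in either direction, was common, in 6188 of the 13929 genes tested. PRMT1 was 1.52-fold lower (log2 fold change -0.61 ± 0.16, SE, adjusted p = 0.0210). This call was lost when AE9a control array 1 or 2, or AE9a siPRMT1 array 1 or 2, was left out, with an adjusted p of 0.0653, 0.0842, 0.0739 and 0.0741. RUNX1T1, the ETO partner of the fusion, was not above background on any control array (log2 fold change 0.11 ± 0.05, SE, adjusted p = 0.243). RUNX1, the other partner, was called higher, a call lost in 6 single-array leave-outs. Its log2 fold change was 0.29 to 0.55 over the settings tried. Whether the probe of either gene lies within the AE9a transcript was not analysed here.

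Of 16 genes for arginine methyltransferases and their partners, PRMT1 included, 8 were higher and 3 lower (median log2 fold change 0.35, against 0.01 over all genes tested). Among all genes 7.98% were called higher and 9.51% lower after siPRMT1. WDR77, the methylosome subunit that positions PRMT5 on its substrates, had 785, 711 and 808 after siPRMT1 and 368, 365 and 386 after control siRNA, which was 2.06-fold higher (log2 fold change 1.04 ± 0.11, SE, adjusted p = 0.000118). PRMT5, the main source of symmetric dimethylarginine, had 1925, 2037 and 2159 with siPRMT1, against 1031, 1215 and 1215 with control siRNA, 1.77-fold higher (adjusted p = 0.00218). RIOK1, an adaptor that recruits other substrates to PRMT5, was 1.58-fold higher (adjusted p = 0.00573). PRMT6, a nuclear enzyme that methylates histone H3, had 1623, 1438 and 1487 on the siPRMT1 arrays, against 846, 911 and 885 on the control arrays, 1.72-fold higher (adjusted p = 0.0232, a call lost without any 1 of the 6 AE9a arrays). CARM1, also called PRMT4, was 1.37-fold higher (adjusted p = 0.0386, lost without any 1 of 5 arrays). PRMT7 was 1.41-fold higher (adjusted p = 0.0197, lost in 3 leave-outs). PRMT2, PRMT3 and PRMT9 passed no test, with log2 fold changes of 0.04 ± 0.13, 0.10 ± 0.15 and 0.06 ± 0.14. PADI4, which converts arginine to citrulline, was at least 1.46-fold lower (adjusted p = 0.000246), since none of its siPRMT1 arrays lay above background. BTG1, listed as a partner, had the deepest fall of the list, a log2 fold change of -1.06, and kept its call in every single-array leave-out. The count of 8 higher fell to 3 to 5 in each leave-out of AE9a control arrays 1 to 3 and siPRMT1 arrays 1 and 3.

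Across all genes, in limma with Benjamini-Hochberg adjustment, 1111 were higher and 1325 lower after siPRMT1. Changes of at least 2-fold were found for 63 genes that rose and 163 that fell, so the large changes were mostly falls. The median log2 fold change was 0.58 among genes called higher and -0.59 among those called lower. Leaving out single arrays gave 539 to 1486 genes higher and 762 to 1662 lower. The number higher dropped to 684, 639 and 615 without AE9a control arrays 1, 2 and 3 and to 539 without siPRMT1 array 3, and the number lower to 787 and 789 without control arrays 2 and 3 and to 762 without siPRMT1 array 3. For a gene with several probes the brightest was used. Of 1011 further probes of called genes, 398 were called in the same direction and 7 in the opposite one. Of the 106 counts of called list members above 0, by direction, 78 changed by over 1.5 times in at least 1 leave-out of a single array.

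**Figure D1:**
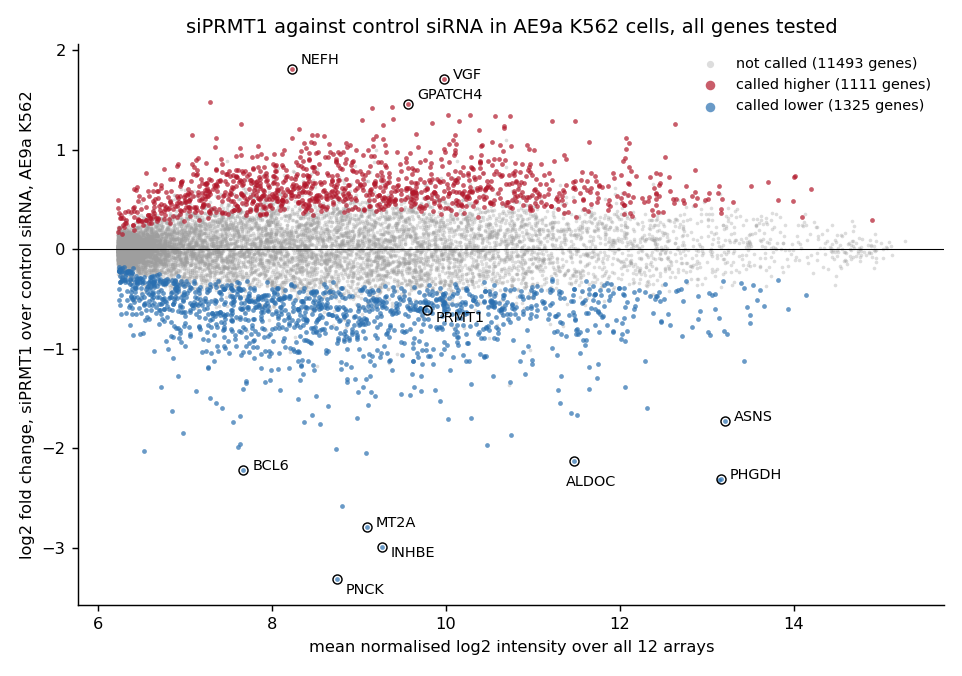
Each point is 1 of 13929 genes, with the mean normalised log2 intensity over all 12 arrays on the x axis and the log2 fold change of siPRMT1 over control siRNA in AE9a cells on the y axis. Red points are the 1111 genes called higher and blue points the 1325 called lower. The deepest falls, PNCK, INHBE and MT2A, lie further from 0 than the highest rises, NEFH and VGF, and PRMT1 lies within the bulk of the blue points.

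Many genes of the integrated stress response fell. In this response, kinases that sense amino acid shortage, heme shortage or misfolded protein phosphorylate eIF2α, which lowers general translation and raises translation of ATF4. Of 18 transcription factors and regulators of the response, 9 were lower and 0 higher (median -0.46), and of 17 effectors and secreted products 11 were lower and 0 higher (median -0.84). Leaving out single arrays gave 9 to 10 and 10 to 15 members lower.

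ATF4 itself had 12350, 11622 and 12927 after siPRMT1 and 17962, 19314 and 18767 after control siRNA. It was 1.52-fold lower (log2 fold change -0.60 ± 0.12, SE, adjusted p = 0.00441), with 1 further probe at -0.97 (adjusted p = 0.00189) and another at -0.50 that was not called. CEBPG, a partner with which ATF4 forms heterodimers, had 798, 865 and 779 with siPRMT1, against 1958, 2028 and 1898 with control siRNA, 2.41-fold lower (log2 fold change -1.27 ± 0.12, SE, adjusted p = 4.49e-05). ATF5, a related factor translated under the same conditions, had 722, 658 and 977 on the siPRMT1 arrays, against 2034, 2463 and 1966 on the control arrays, and siPRMT1 array 3 was the highest of its group and still below every control array. It was 2.77-fold lower (adjusted p = 0.00235). TRIB3, a pseudokinase that feeds back on ATF4, was 3.18-fold lower (log2 fold change -1.67 ± 0.28, SE, adjusted p = 0.00172). CEBPB, a second partner of ATF4, was 1.78-fold lower (adjusted p = 0.00360), and PPP1R15A, the phosphatase subunit that reverses eIF2α phosphorylation, was 1.64-fold lower (adjusted p = 0.00149).

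Among the eIF2α kinases, EIF2AK1, the kinase that senses heme in erythroid cells, was called. It had 5403, 5717 and 5650 after siPRMT1 and 10019, 8099 and 9158 after control siRNA, 1.62-fold lower (log2 fold change -0.70 ± 0.12, SE, adjusted p = 0.00168), while its second probe showed -0.14 (adjusted p = 0.498). EIF2AK3, the kinase of the endoplasmic reticulum, gave -0.23 ± 0.10 (SE), and EIF2AK4, the kinase that senses uncharged tRNA, 0.38 ± 0.45, neither past the threshold.

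Among the effectors, GDF15, a secreted stress hormone, had 3395, 3241 and 2575 with siPRMT1, against 9545, 10143 and 9025 with control siRNA, 3.14-fold lower (log2 fold change -1.65 ± 0.15, SE, adjusted p = 3.11e-05). KLHL24, a substrate adaptor of a ubiquitin ligase, had 268, 276 and 218 on the siPRMT1 arrays, against 1046, 930 and 1063 on the control arrays, 4.0-fold lower (adjusted p = 2.20e-05). The highest siPRMT1 array of each lay far below its lowest control array. INHBE, a secreted activin subunit, fell most in the list, with 208, 207 and 209 after siPRMT1 and 1707, 1747 and 1528 after control siRNA. That was 7.95-fold (log2 fold change -2.99 ± 0.24, SE, adjusted p = 7.92e-06). CHAC1, which degrades glutathione, was dim. It had 67.4, 77.9 and 69.4 with siPRMT1, against 141, 159 and 130 with control siRNA, and with no siPRMT1 array above background it was at least 1.67-fold lower (adjusted p = 0.00347). SESN2, an inhibitor of mTORC1 that senses leucine, was 1.75-fold lower (adjusted p = 0.0161, lost without any 1 of 4 arrays), and EIF4EBP1, a repressor of cap-dependent translation, gave -0.44 ± 0.16 and did not pass (adjusted p = 0.0795).

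The pathway from 3-phosphoglycerate to serine, and the mitochondrial folate pathway that takes the carbon from serine, were lower at nearly every step measured, while the cytosolic folate enzymes were not called. Of 24 serine, glycine and one-carbon enzymes 8 were lower and 1 higher (median -0.03). The number lower was 8 in each leave-out of a single array.

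PHGDH, the first enzyme of serine synthesis, had 3740, 3700 and 3609 on the siPRMT1 arrays, against 17854, 19382 and 17588 on the control arrays, 4.96-fold lower (log2 fold change -2.31 ± 0.14, SE, adjusted p = 5.95e-07). PSAT1, the second enzyme, had 1106, 1131 and 1163 after siPRMT1 and 3256, 3426 and 3249 after control siRNA, 2.92-fold lower (adjusted p = 9.01e-05). PSPH, the third, had 415, 349 and 262 with siPRMT1, against 610, 677 and 723 with control siRNA, 1.99-fold lower (adjusted p = 0.00162). In the mitochondrial branch, SHMT2, which splits serine into glycine and a folate-bound carbon, was 1.66-fold lower (adjusted p = 0.000577). MTHFD2, which oxidises that carbon, had 1759, 2209 and 2210 on the siPRMT1 arrays, against 4775, 4662 and 4236 on the control arrays, 2.22-fold lower (adjusted p = 0.000160). MTHFD1L, which releases it as formate, was 1.47-fold lower (adjusted p = 0.00360), and ALDH1L2 was 1.56-fold lower (adjusted p = 0.00106). AMT, of the glycine cleavage system, was 2.92-fold lower with 97.6, 96.1 and 85.1 after siPRMT1 and 274, 283 and 257 after control siRNA (adjusted p = 0.000226), whereas GCSH of the same system was the 1 member that rose, a call lost without any 1 of the 6 AE9a arrays. SHMT1, the cytosolic counterpart of SHMT2, was not called.

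Of 19 enzymes of asparagine, cysteine, proline and glutamate metabolism, 8 were lower and 1 higher (median -0.18). ARG2, the mitochondrial arginase that splits arginine into ornithine and urea, fell most. It had 388, 408 and 322 with siPRMT1, against 1557, 1579 and 1477 with control siRNA, 4.14-fold lower (log2 fold change -2.05 ± 0.16, SE, adjusted p = 5.95e-06). ASNS, asparagine synthetase, had 3844, 3846 and 3864 on the siPRMT1 arrays, against 12798, 12667 and 12652 on the control arrays, 3.30-fold lower (log2 fold change -1.72 ± 0.11, SE, adjusted p = 1.17e-06), and its 3 siPRMT1 arrays differed by less than 1%. CTH, which makes cysteine from cystathionine, had 168, 177 and 177 after siPRMT1 and 515, 623 and 558 after control siRNA, 3.24-fold lower (log2 fold change -1.70 ± 0.16, SE, adjusted p = 3.20e-05). CBS, the enzyme before it, was 1.56-fold lower (adjusted p = 0.00159). BCAT1, the cytosolic aminotransferase of branched-chain amino acids, was 2.27-fold lower (adjusted p = 0.000503) and GOT1, the cytosolic aspartate aminotransferase, 1.46-fold lower (adjusted p = 0.0153, lost without control array 1 or siPRMT1 array 2). ASS1, argininosuccinate synthetase, was 2.31-fold lower (adjusted p = 0.00208), with 1 of its further probes at -1.74 (adjusted p = 0.00113) and another at -0.36 (adjusted p = 0.146). PCK2, mitochondrial phosphoenolpyruvate carboxykinase, was in no list and was named after its values were seen. It had 592, 511 and 509 with siPRMT1, against 1323, 1389 and 1400 with control siRNA, 2.56-fold lower (adjusted p = 0.000936).

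**Figure D2:**
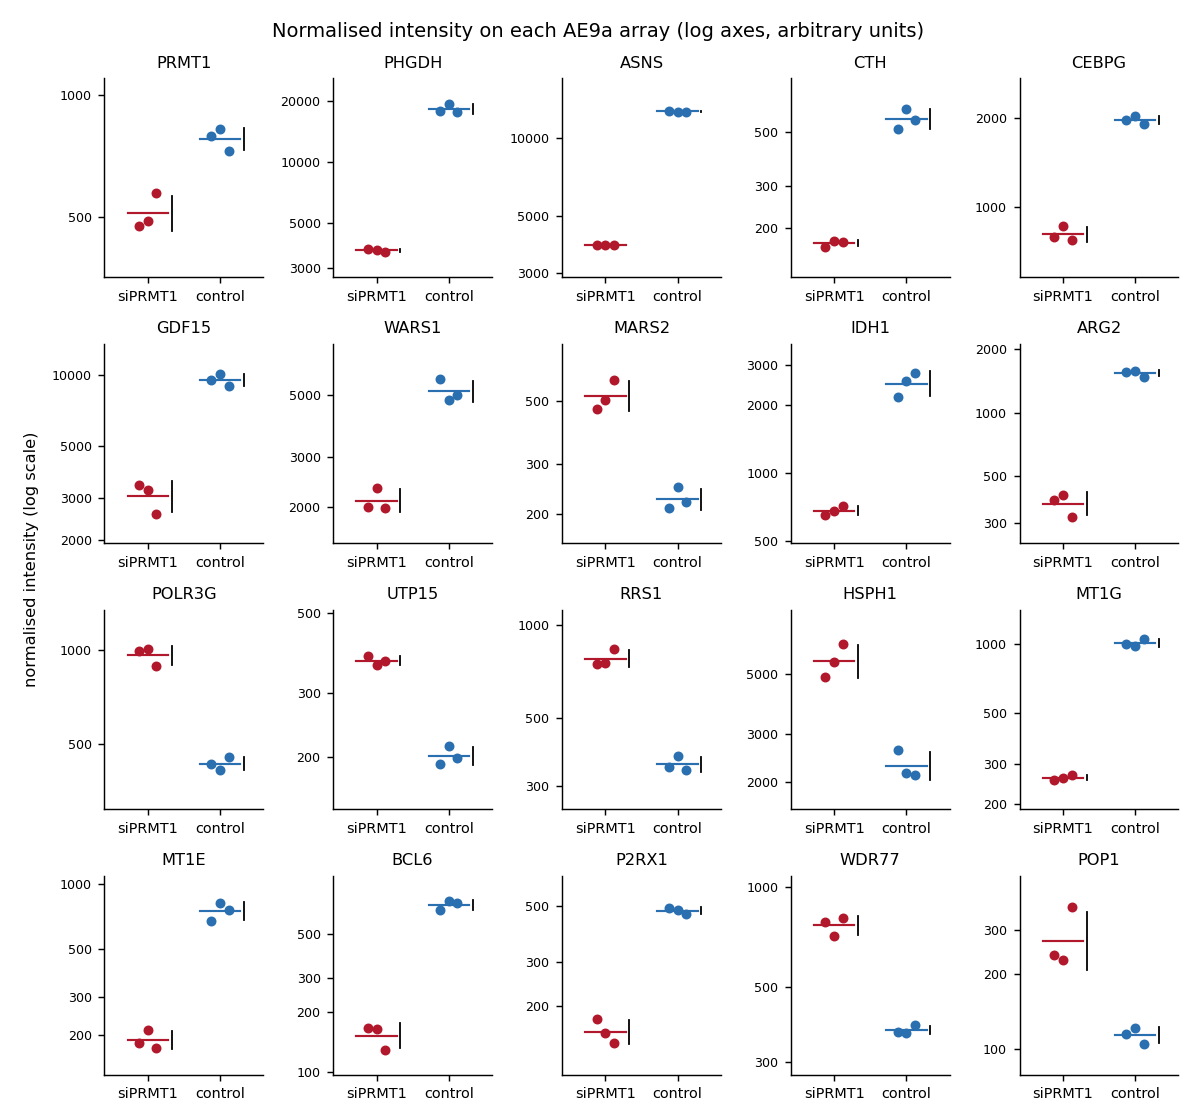
Normalised intensity (log axes) of 20 genes on each of the 3 siPRMT1 arrays (red, left) and the 3 control arrays (blue, right) of AE9a cells; horizontal bars are the means of the log2 values and black vertical bars their SD. No gene shown had overlapping groups, which was also true of 6188 of the 13929 genes tested. PRMT1 was separated by the smallest step, and ASNS had the tightest arrays.

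ATF4 binds as a heterodimer to the composite site TGATGNAA (N, any base). The site was searched on both strands in RefSeq promoters of GRCh38.p14, each running from 250 bases before to 50 bases after a gene's start. A promoter was found for 10937 of the 13929 genes. The site was present in 3.67% of all 27305 promoters and in 2.07% of those of genes tested, and in 37 of the 1101 promoters of genes called lower (3.36%). Promoters of 3 of 8 called amino acid enzymes (ASNS, BCAT1 and GOT1) and of 3 of 8 called cytosolic tRNA synthetases (AARS1, MARS1 and IARS1) held it, and 1 of 5 of called serine and folate enzymes (MTHFD1L). The promoters of TRIB3, DDIT3, ATF5, CEBPG, DDIT4, PHGDH and PSAT1, all called lower, did not hold it. It was in 1 of 8 promoters of called regulators (ATF3) and in 1 of 9 of called effectors (CHAC1). Windows of 100 bases around the site are shown for 4 of these genes, 1 each from the enzyme, effector, synthetase and regulator lists, as examples of promoters that hold the letters in genes that fell. They lie at chr7:97872427-97872526 on the minus strand (ASNS), chr15:40953221-40953320 on the plus strand (CHAC1), chr16:70289644-70289743 on the minus strand (AARS1) and chr1:212565166-212565265 on the plus strand (ATF3), read 5′ to 3′ on the strand of the gene, with the site in capitals. A site on the opposite strand reads as its reverse complement.
ASNS: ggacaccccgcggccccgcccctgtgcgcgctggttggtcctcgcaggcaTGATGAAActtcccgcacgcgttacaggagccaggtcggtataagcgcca
CHAC1: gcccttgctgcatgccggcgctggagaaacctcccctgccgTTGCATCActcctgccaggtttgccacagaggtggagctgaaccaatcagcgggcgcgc
AARS1: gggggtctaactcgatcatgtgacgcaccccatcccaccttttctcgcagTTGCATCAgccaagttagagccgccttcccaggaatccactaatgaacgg
ATF3: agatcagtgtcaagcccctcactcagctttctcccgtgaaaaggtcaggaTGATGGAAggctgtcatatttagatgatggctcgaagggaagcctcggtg

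ATF3, a repressor of the same family, fell 2.24-fold, with 365, 343 and 315 on the siPRMT1 arrays, against 737, 735 and 818 on the control arrays (log2 fold change -1.16 ± 0.21, SE, adjusted p = 0.00313). A match is a run of letters in these windows and not a measured binding site.

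Aminoacyl-tRNA synthetases, which attach amino acids to tRNAs, were called mainly lower for the cytosol and mainly higher for the mitochondrion. Of 20 cytosolic synthetases 9 were lower and 1 higher (median -0.36), and of 16 mitochondrial ones 4 were higher and 1 lower (median 0.23). WARS1, for tryptophan, had 2002, 2339 and 1979 after siPRMT1 and 5674, 4789 and 5007 after control siRNA, 2.45-fold lower (log2 fold change -1.29 ± 0.12, SE, adjusted p = 3.55e-05). AARS1, for alanine, had 6887, 7119 and 6535 with siPRMT1, against 14812, 15256 and 14605 with control siRNA, 2.18-fold lower (adjusted p = 1.69e-05). GARS1, for glycine and used in both compartments, was 1.81-fold lower (adjusted p = 0.000753), and MARS1, for methionine, was 1.80-fold lower (adjusted p = 0.00265). SARS1, YARS1, EPRS1 and IARS1 were 1.77-fold, 1.71-fold, 1.54-fold and 1.44-fold lower, and FARSA, a subunit for phenylalanine, was the member that rose, a call lost in 8 single-array leave-outs. MARS2, the mitochondrial enzyme for methionine, had 470, 505 and 594 on the siPRMT1 arrays, against 211, 248 and 220 on the control arrays, 2.30-fold higher (adjusted p = 0.000522), so the methionine enzymes of the cytosol and of the mitochondrion were called in opposite directions. The number of mitochondrial members higher dropped from 4 to 1 or 2 in each leave-out of an AE9a array, with MARS2 called in each. XPOT, the exporter of mature tRNAs from the nucleus, was 2.46-fold lower with 376, 260 and 151 after siPRMT1 and 596, 589 and 625 after control siRNA (adjusted p = 0.00347), and its siPRMT1 arrays spread over more than a 2-fold range.

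Amino acid transporters of the plasma membrane were called in both directions. Of 19, 3 were lower and 2 higher (median -0.04), or 15.8% and 10.5%, against 9.51% and 7.98% over all genes. The number lower was 5 without wild type control array 2 or 3, which enter through the shared estimate of spread. SLC6A9, the glycine transporter, was 1.91-fold lower (adjusted p = 0.00218), though its second probe gave -0.05. SLC3A2, the heavy chain shared by several transporters, was 1.57-fold lower (adjusted p = 0.00731). SLC38A5, a glutamine and serine transporter, rose 2.21-fold with 536, 464 and 723 with siPRMT1, against 266, 287 and 219 with control siRNA (adjusted p = 0.00594). SLC7A11, the cystine importer, was above background on the control arrays alone and was not called, and SLC7A5, a light chain of SLC3A2, gave -0.38 ± 0.29 (adjusted p = 0.468). Of 21 chaperones and other genes of the endoplasmic reticulum 5 were lower and 0 higher (median -0.14), among them XBP1, the transcription factor that IRE1 splices (1.76-fold, adjusted p = 0.00389).

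**Figure D3:**
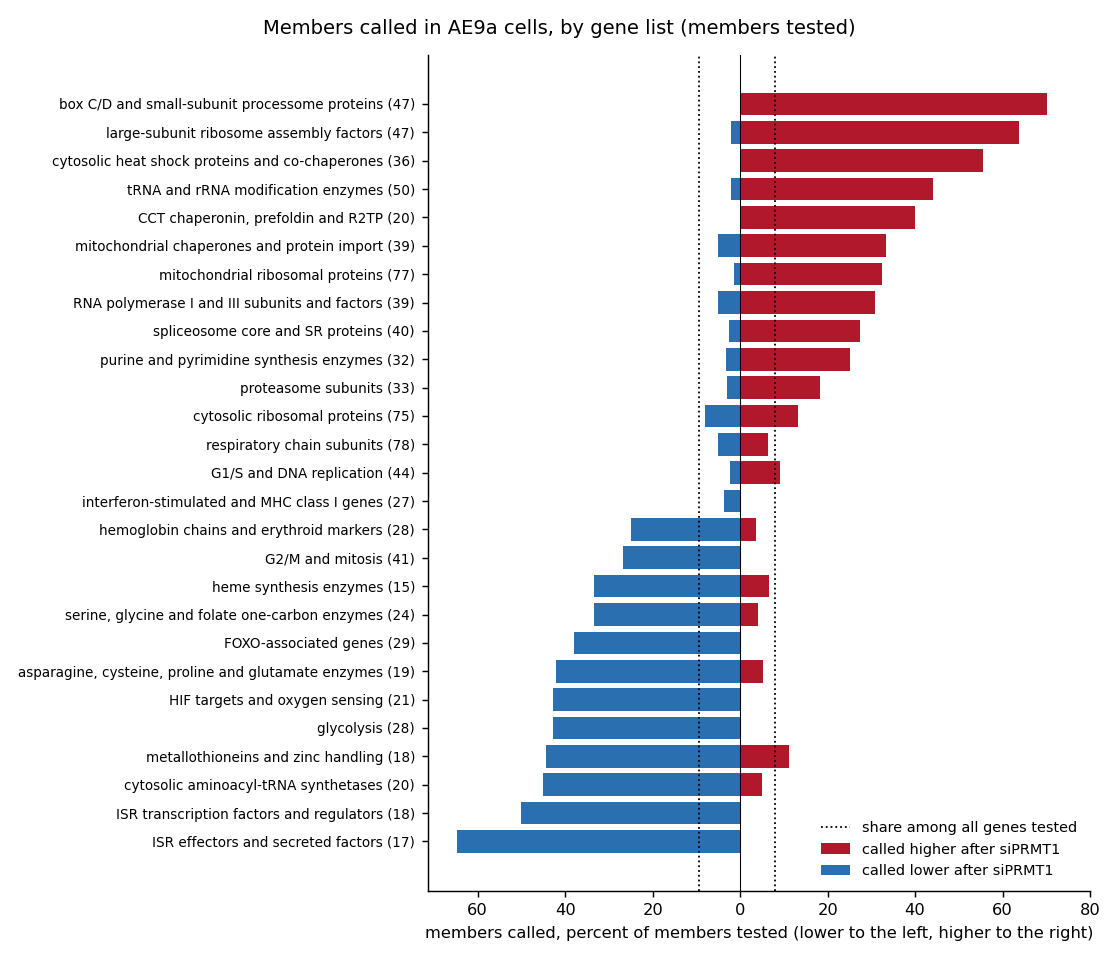
Share of the tested members of 27 gene lists called higher (red, to the right) or lower (blue, to the left) after siPRMT1 in AE9a cells, in percent, with the number of members tested after each name. Dotted lines mark the shares among all genes, 7.98% higher and 9.51% lower. The ribosome assembly lists at the top reach 63.8% and 70.2% higher, and the list of stress response effectors reaches 64.7% lower.

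Genes that build ribosomes rose broadly. The list of small-subunit processome and box C/D proteins had 33 of 47 members higher and 0 lower (median 0.58). The processome folds and cuts the precursor of 18S rRNA in the nucleolus. The list also holds GAR1 and NHP2, which belong to box H/ACA particles. Assembly factors of the large subunit had 30 of 47 higher and 1 lower (median 0.52). RRS1 is counted in both lists. The lowest count over single-array leave-outs was 20 for the small subunit and 21 for the large one, each without siPRMT1 array 3.

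RRS1, which joins the 5S ribonucleoprotein to the large subunit, had 747, 751 and 835 on the siPRMT1 arrays, against 345, 377 and 338 on the control arrays, 2.20-fold higher (log2 fold change 1.14 ± 0.14, SE, adjusted p = 0.000246). UTP15, a processome subunit that also aids rRNA transcription, had 381, 360 and 368 after siPRMT1 and 192, 215 and 200 after control siRNA, 1.83-fold higher (log2 fold change 0.87 ± 0.10, SE, adjusted p = 0.000207). RRP9, the U3-specific protein of the processome, had 252, 309 and 266 with siPRMT1, against 141, 146 and 140 with control siRNA, 1.93-fold higher (adjusted p = 0.000792). Each of these had 3 siPRMT1 arrays above all 3 control arrays, as had 1107 of the 1111 genes called higher. BYSL, needed for late 40S maturation, was 1.64-fold higher (adjusted p = 0.000876), DCAF13 1.59-fold (adjusted p = 0.00110) and NOP56, the core of box C/D particles, 2.11-fold (adjusted p = 0.00962). On the large-subunit side, GPATCH4 had 996, 1067 and 1271 on the siPRMT1 arrays, against 382, 422 and 400 on the control arrays, 2.75-fold higher (adjusted p = 0.00107). RRP15 and RRP1 were 2.13-fold and 2.21-fold higher (adjusted p = 0.00123 and 0.00102), and NOP2, a 28S rRNA methyltransferase, was 1.81-fold higher, with its other 2 probes at 0.83 and 0.98 on the log2 scale. RSL24D1 was the assembly factor that fell.

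The polymerases that make rRNA and tRNA followed in part, with 12 of 39 subunits and factors of RNA polymerases I and III higher and 2 lower (median 0.29). POLR3G, the form of an RNA polymerase III subunit found in stem cells, had 988, 1004 and 887 after siPRMT1 and 429, 411 and 453 after control siRNA, 2.22-fold higher (log2 fold change 1.15 ± 0.11, SE, adjusted p = 3.82e-05). POLR3GL, the form found in most cells, was 1 of the 2 members that fell. Another probe of POLR3G rose by 1.35 (adjusted p = 0.000385), and the remaining one gave 0.16 and was not called. POLR1G and POLR1F, both specific to RNA polymerase I, were 1.82-fold and 1.64-fold higher (adjusted p = 0.00266 and 0.00283). MAF1, the repressor of RNA polymerase III, gave 0.02 ± 0.14. POP1, the large protein subunit of RNase P and RNase MRP, which trim tRNA and rRNA precursors, had 238, 227 and 371 with siPRMT1, against 115, 122 and 106 with control siRNA, 2.39-fold higher (adjusted p = 0.00104). RPP25 of the same enzymes was 2.04-fold higher (adjusted p = 0.000874), and GTF3C6, a subunit of the factor that recognises tRNA genes, 2.29-fold (adjusted p = 0.00199); both were named after their values were seen.

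Enzymes that modify tRNA and rRNA had 22 of 50 members higher and 1 lower (median 0.33), and 15 higher at the lowest single-array leave-out. METTL1, which adds 7-methylguanosine to tRNAs, had 975, 977 and 1056 on the siPRMT1 arrays, against 480, 534 and 523 on the control arrays, 1.96-fold higher (adjusted p = 0.00211), and its partner WDR4 was also called higher. QTRT1 and QTRT2, the subunits of the enzyme that inserts queuosine, were 1.78-fold and 1.94-fold higher (adjusted p = 0.000941 and 0.000845). PUS7 and PUS1, pseudouridine synthases, were 1.73-fold and 1.63-fold higher (adjusted p = 0.00138 and 0.00119). ELP2, a scaffold of the Elongator complex, was the member that fell.

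Ribosomal proteins are the parts that these factors assemble. Of 75 cytosolic ribosomal protein genes 10 were higher and 6 lower (median -0.02), or 13.3% and 8.0%, with 5 higher without siPRMT1 array 3 and 6 without control array 3 or siPRMT1 array 1. RPL29 had 1353, 1151 and 1313 after siPRMT1 and 456, 549 and 560 after control siRNA, 2.44-fold higher (adjusted p = 0.000246), and RPL28 had 217, 180 and 198 with siPRMT1, against 372, 426 and 405 with control siRNA, 2.02-fold lower (adjusted p = 0.000792). Many processed pseudogenes resemble these genes, so single ribosomal protein calls are uncertain. Of 77 mitochondrial ribosomal protein genes 25 were higher and 1 lower (median 0.32), with 14 to 16 higher without control array 2 or 3 or siPRMT1 array 3. MRPS7 and MRPS17 were 1.93-fold and 1.88-fold higher (adjusted p = 0.00160 and 0.00248).

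Some genes of mitochondrial gene expression and import rose. Of 36 mitochondrial RNA and translation factors 9 were higher and 0 lower (median 0.24). TWNK, the helicase that unwinds mitochondrial DNA, had 478, 439 and 610 on the siPRMT1 arrays, against 259, 236 and 273 on the control arrays, 1.97-fold higher (adjusted p = 0.000839), and PPRC1, a coactivator of the PGC-1 family, was 1.73-fold higher (adjusted p = 0.00147). Of 39 mitochondrial chaperones and import proteins 13 were higher and 2 lower (median 0.25), with 6 higher without siPRMT1 array 3 and 8 without control array 1. TIMM10 and TIMM8A, small chaperones of the intermembrane space, were 2.06-fold and 1.87-fold higher (adjusted p = 0.00773 and 0.00117), and LONP1, the matrix protease, was 1.88-fold lower with 2338, 2240 and 2205 after siPRMT1 and 4112, 4488 and 4178 after control siRNA (adjusted p = 0.000375). Nuclear-encoded respiratory chain subunits had 5 of 78 higher and 4 lower (median 0.04), which is below the shares over all genes, and 2 to 8 higher and 2 to 4 lower in single-array leave-outs.

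The E-box CACGTG, the preferred site of MYC and its relatives, was in 7.44% of all promoters and 9.91% of those of genes tested. It was in 17.6% of promoters of genes called higher and in 9.72% of those called lower. Among called processome genes with a promoter 13 of 27 held it, and among called large-subunit factors 7 of 23. It was also in 4 of 8 promoters of HIF targets called lower (BNIP3, BHLHE40, ANKRD37 and KDM4B). CACGTG contains ACGTG, the core of the hypoxia response element, which was searched as well. ACGTG was in 6 of those 8 promoters, 6 of 11 of called glycolysis genes and 17 of 27 of called processome genes. Among genes tested its share was 26.0%. Windows of 100 bases are given for 3 assembly genes holding CACGTG, in capitals, because the assembly genes are the largest block that rose. They lie at chr3:51941860-51941959 (RRP9, minus strand), chr12:6568242-6568341 (NOP2, minus strand) and chr12:101280045-101280144 (UTP20, plus strand).
RRP9: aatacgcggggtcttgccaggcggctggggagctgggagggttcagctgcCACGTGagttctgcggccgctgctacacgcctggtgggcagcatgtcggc
NOP2: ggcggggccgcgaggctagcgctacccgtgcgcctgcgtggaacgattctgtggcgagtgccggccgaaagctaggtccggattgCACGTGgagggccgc
UTP20: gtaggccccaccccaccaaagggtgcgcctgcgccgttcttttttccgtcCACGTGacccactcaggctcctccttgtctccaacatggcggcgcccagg

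UTP20, a large processome scaffold, had 161, 155 and 170 with siPRMT1, against 82.4, 91.8 and 98.3 with control siRNA, 1.78-fold higher (adjusted p = 0.000577), with control arrays near background. MYC itself gave 0.29 ± 0.13 (adjusted p = 0.162) and was not called. MXD genes, whose products compete with MYC for MAX at E-boxes, fell. MXD3 had 145, 125 and 130 on the siPRMT1 arrays, against 273, 287 and 271 on the control arrays, 2.08-fold lower (log2 fold change -1.06 ± 0.13, SE, adjusted p = 0.000299), MXD4 was 2.38-fold lower (adjusted p = 0.00524) and MXD1 1.73-fold lower (adjusted p = 0.00139). With MLXIPL, a glucose-responsive member at 2.18-fold lower (adjusted p = 0.00348), 4 of 11 network genes were lower and 0 higher, and this count was 4 or 5 in every leave-out of 1 array.

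Of 32 enzymes of purine and pyrimidine synthesis 8 were higher and 1 lower (median 0.20), and 4 or 5 were higher without AE9a control array 1 or 2 or siPRMT1 array 1 or 3. DCTPP1, which clears aberrant dCTP, had 6269, 5317 and 6902 after siPRMT1 and 3045, 2684 and 2766 after control siRNA, 2.17-fold higher (adjusted p = 0.000496). CTPS1, CTP synthase, was 1.76-fold higher (adjusted p = 0.00295) and PFAS, of purine synthesis, 1.71-fold (adjusted p = 0.00325). Of 15 polyamine genes 4 were higher and 1 lower (median 0.18). ODC1, ornithine decarboxylase, was 1.90-fold higher (adjusted p = 0.000706), and EIF5A, which carries hypusine, rose by a log2 fold change of 0.58 (adjusted p = 0.0260, lost in 6 leave-outs). SRM, spermidine synthase, had 2109, 2016 and 2223 with siPRMT1, against 1080, 975 and 1014 with control siRNA, 2.07-fold higher (adjusted p = 0.00362). DOHH and DHPS, which act in turn to make hypusine on EIF5A, were called in opposite directions. DOHH was 1.63-fold higher (adjusted p = 0.0126, lost without control array 3 or siPRMT1 array 3) and DHPS 1.59-fold lower (adjusted p = 0.00149), with all 3 of its probes lower. SLC19A1, which imports folate, was 2.03-fold higher with 337, 394 and 497 on the siPRMT1 arrays, against 187, 211 and 200 on the control arrays (adjusted p = 0.00204) and was named after its values were seen.

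Cytosolic chaperones rose. Of 36 heat shock proteins and co-chaperones 20 were higher and 0 lower (median 0.49), with 13 higher without siPRMT1 array 3, and of 20 subunits of the CCT chaperonin, prefoldin and R2TP 8 were higher and 0 lower (median 0.32), with 4 without that array. HSPH1, a nucleotide exchange factor of HSP70, had 4850, 5508 and 6417 after siPRMT1 and 2608, 2145 and 2116 after control siRNA, 2.44-fold higher (log2 fold change 1.29 ± 0.23, SE, adjusted p = 0.00266). HSPA4, of the same family, had 2372, 2112 and 2593 with siPRMT1, against 1314, 1300 and 1293 with control siRNA, 1.80-fold higher (adjusted p = 0.000906). DNAJB1, an HSP40 that feeds clients to HSP70, was 1.71-fold higher (adjusted p = 0.00385). HSPA8, the constitutive HSP70, had 15426, 18969 and 22203 on the siPRMT1 arrays, against 10765, 12424 and 11943 on the control arrays, 1.60-fold higher (adjusted p = 0.00354). HSP90AA1, the inducible cytosolic HSP90, was 1.65-fold higher (adjusted p = 0.00399). On the brightest probes of these genes siPRMT1 array 3 was the highest array. HSPA1A and HSPA1B, near-identical inducible HSP70 genes whose probes may cross-hybridise, were 2.09-fold and 2.36-fold higher, and both calls were lost without siPRMT1 array 3 or control array 3, that of HSPA1B also without control array 2. HSF1, the factor that drives these genes, gave 0.34 ± 0.12 (adjusted p = 0.0845).

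The core of a heat shock element, GAANNTTC, was in 6.87% of all promoters, in those of 4.86% of genes tested and of 7 of the 17 called chaperone genes with a promoter. HSPA8 at chr11:123062137-123062236 and CHORDC1 at chr11:90223050-90223149, both on the minus strand, are shown with the motif in capitals, since CHORDC1 was among the chaperone genes that rose most and held 3 matches, 2 of them in this window.
HSPA8: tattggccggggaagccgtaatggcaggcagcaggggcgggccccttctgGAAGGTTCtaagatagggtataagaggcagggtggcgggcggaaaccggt
CHORDC1: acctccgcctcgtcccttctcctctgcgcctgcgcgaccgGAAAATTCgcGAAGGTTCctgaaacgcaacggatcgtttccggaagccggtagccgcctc

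CHORDC1, a co-chaperone of HSP90, had 1155, 1086 and 1290 after siPRMT1 and 460, 470 and 561 after control siRNA, 2.37-fold higher (log2 fold change 1.25 ± 0.19, SE, adjusted p = 0.00105). GAANNTTC reads the same on both strands, so each match counts once. The other arrangement searched, TTCNNGAA, was in 3 of the 17 promoters of called chaperone genes and in 6.13% of those of genes tested. The promoters of HSPH1, HSP90AA1 and DNAJB1 held neither arrangement.

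**Figure D4:**
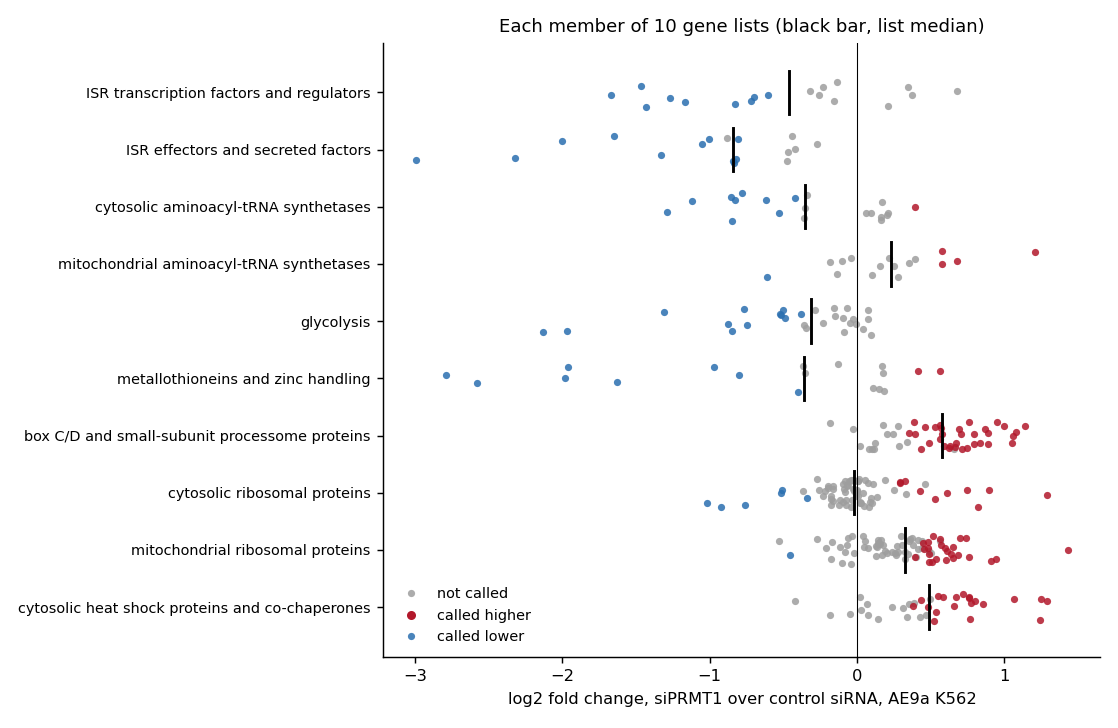
Log2 fold change of siPRMT1 over control siRNA in AE9a cells (x axis) for each tested member of 10 gene lists (y axis); red points were called higher, blue lower and grey not called, and the black bar is the list median. Cytosolic and mitochondrial tRNA synthetases have medians of -0.36 and 0.23, and cytosolic ribosomal proteins centre on -0.02 while processome proteins centre on 0.58.

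Part of the messenger RNA processing genes rose. Of 40 spliceosome and SR protein genes 11 were higher and 1 lower (median 0.24), and of 39 RNA-binding proteins known to be methylated on arginine 10 were higher and 2 lower (median 0.23). The spliceosome count was 4 without siPRMT1 array 3 and 6 or 7 without control array 1 or 2 or siPRMT1 array 2, and the second count was 3 without siPRMT1 array 3 and 4 to 6 without control array 1, 2 or 3 or siPRMT1 array 2. SF3B4 and SRSF1 were 1.56-fold and 1.45-fold higher (adjusted p = 0.00157 and 0.00544). SNRNP200, the helicase that unwinds U4 from U6, had 206, 186 and 158 with siPRMT1, against 393, 363 and 355 with control siRNA, 2.03-fold lower (adjusted p = 0.00153), with both probes lower. SYNCRIP, an hnRNP that PRMT1 methylates, had 2166, 2199 and 2325 on the siPRMT1 arrays, against 1025, 930 and 922 on the control arrays, 2.33-fold higher (adjusted p = 0.00196). Among 48 DEAD and DEAH box helicases, many of which act on rRNA, 16 were higher and 3 lower (median 0.17), with 10 higher without siPRMT1 array 3. DHX37, which releases U3 from the pre-ribosome, had 1079, 1043 and 1320 after siPRMT1 and 548, 588 and 546 after control siRNA, 2.04-fold higher (adjusted p = 0.00123), while DHX40 was 1.77-fold lower (adjusted p = 0.00212). Translation initiation factors were mixed, with 6 of 36 higher and 4 lower (median 0.13), and 1 to 3 higher without control array 2 or 3 or any 1 siPRMT1 array. EIF4G1, the scaffold of the cap-binding complex, was 1.97-fold higher (adjusted p = 0.00227), and EIF1, which guards start codon choice, had 5468, 6144 and 5123 with siPRMT1, against 9395, 10408 and 10468 with control siRNA, 1.81-fold lower (adjusted p = 0.00118).

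Part of the glycolysis and hypoxia genes fell. Of 28 glycolytic genes 12 were lower and 0 higher (median -0.31), and of 21 HIF targets and oxygen sensors 9 were lower and 0 higher (median -0.51). The glycolysis count was 4 to 7 without any 1 of AE9a control arrays 1 to 3 or siPRMT1 arrays 1 and 3, and the HIF count was 5 without siPRMT1 array 3. ALDOC, an aldolase isoform induced by hypoxia, had 1497, 1589 and 801 on the siPRMT1 arrays, against 5283, 5668 and 5327 on the control arrays. Its siPRMT1 array 3 lay far below the other two, and the call (4.37-fold lower, adjusted p = 0.00985) was lost without that array. PFKFB4, which sets the level of the activator fructose 2,6-bisphosphate, had 1024, 900 and 511 after siPRMT1 and 3029, 2997 and 3113 after control siRNA, with the same array lowest, and was 3.91-fold lower (adjusted p = 0.00413). P4HA1, a collagen prolyl hydroxylase, was 3.24-fold lower with 729, 813 and 555 with siPRMT1, against 2112, 2298 and 2313 with control siRNA (adjusted p = 0.00425). BNIP3, a mitophagy receptor, had 4895, 4091 and 2751 on the siPRMT1 arrays, against 9858, 9654 and 10339 on the control arrays, 2.61-fold lower (adjusted p = 0.00441). KDM3A, a histone demethylase induced by HIF, was 1.78-fold lower (adjusted p = 0.00540). In these genes siPRMT1 array 3 gave the lowest value, and the reason was not tested. HIF1A itself gave 0.34 ± 0.13 (adjusted p = 0.0943), and the glucose transporter SLC2A1 gave -0.09 ± 0.10.

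Of 26 genes of the citric acid cycle and linked enzymes, cytosolic forms included, 4 were lower and 0 higher (median 0.05), and 2 without any 1 of the 6 AE9a arrays. IDH1, the cytosolic NADP-dependent isocitrate dehydrogenase, had 652, 680 and 710 after siPRMT1 and 2165, 2533 and 2771 after control siRNA, 3.64-fold lower (log2 fold change -1.86 ± 0.14, SE, adjusted p = 4.63e-06). IDH2, its mitochondrial counterpart, had 357, 360 and 353 with siPRMT1, against 723, 710 and 708 with control siRNA, 2.0-fold lower (adjusted p = 0.00879). MDH1, the cytosolic malate dehydrogenase, and SDHA, of succinate dehydrogenase, were lower by smaller steps and lost their calls in several leave-outs.

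A few lipid synthesis genes fell. Of 22 cholesterol genes 5 were lower and 1 higher (median -0.22), with 2 or 3 lower without any 1 of AE9a control arrays 2 and 3 or siPRMT1 arrays 2 and 3, and of 21 fatty acid genes 5 were lower and 2 higher (median -0.12). ACSS2, which makes acetyl-CoA from acetate, had 1915, 1967 and 1468 on the siPRMT1 arrays, against 4021, 4380 and 4402 on the control arrays, 2.41-fold lower (log2 fold change -1.27 ± 0.20, SE, adjusted p = 0.00128), with 1 further probe at -1.37 and another at -0.27 that was not called. SCD, which introduces the first double bond into fatty acids, had 10198, 11267 and 11512 after siPRMT1 and 16693, 16190 and 15954 after control siRNA, 1.48-fold lower (adjusted p = 0.000867). FADS1, a desaturase of polyunsaturated fatty acids, was 1.90-fold lower (adjusted p = 0.00731), and INSIG1, which retains SREBP in the endoplasmic reticulum, 1.57-fold lower (adjusted p = 0.00876). ACACA, acetyl-CoA carboxylase, rose 1.36-fold (adjusted p = 0.00943). SREBF2, HMGCS1 and SQLE gave -0.18 ± 0.09, -0.48 ± 0.27 and 0.18 ± 0.16, and none was called.

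Erythroid genes, which K562 cells express strongly, were partly lower. Of 15 heme synthesis genes 5 were lower and 1 higher (median -0.37), with 3 lower without control array 2 or siPRMT1 array 3, and of 28 hemoglobin and red cell genes 7 were lower and 1 higher (median -0.03), with 3 or 4 lower without any 1 of control arrays 2 and 3 or siPRMT1 arrays 2 and 3. ALAS2, the erythroid first enzyme of heme synthesis, had 6376, 6530 and 7387 with siPRMT1, against 13081, 13748 and 12941 with control siRNA, 1.96-fold lower (adjusted p = 0.0383, lost without any 1 of 6 arrays), and its other 2 probes gave -0.80 and -0.35 (adjusted p = 0.000847 and 0.00525). CPOX, a later enzyme, had 1310, 1428 and 920 on the siPRMT1 arrays, against 3171, 2497 and 2938 on the control arrays, 2.38-fold lower (adjusted p = 0.00326). SLC25A37, mitoferrin, which brings iron into the mitochondrion, had 634, 754 and 733 after siPRMT1 and 2016, 1815 and 1813 after control siRNA, 2.67-fold lower (adjusted p = 0.00130). NCOA4, which delivers ferritin for degradation, was 1.61-fold lower with 9259, 10170 and 10659 with siPRMT1, against 17392, 15613 and 15426 with control siRNA (adjusted p = 0.0104). XK, a red cell membrane protein, was 1.62-fold lower (adjusted p = 0.00285). STEAP3, the ferrireductase of the transferrin cycle, rose 1.70-fold (adjusted p = 0.00777).

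The alpha and gamma globins measured here passed no test. HBG1, a fetal globin close in sequence to HBG2, gave -0.01 ± 0.09, and HBA1 gave 0.06 ± 0.15. HBD, the delta chain, had 3830, 3225 and 4340 on the siPRMT1 arrays, against 1367, 1592 and 1527 on the control arrays, 2.53-fold higher (adjusted p = 0.0141, lost without control array 1 or siPRMT1 array 3). Of 26 erythroid and megakaryocyte transcription factors 2 were higher and 1 lower (median 0.05). These are 7.69% and 3.85%, against 7.98% and 9.51% over all genes. Single-array leave-outs gave 0 to 4 higher and 0 or 1 lower, and GATA1 gave -0.10 ± 0.13 (adjusted p = 0.705). In bulk RNA, fewer cells of 1 state and less RNA per cell cannot be told apart.

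Of 11 listed megakaryocyte and platelet genes 1 was lower and 1 higher (median 0.02), near the shares over all genes. ITGA2B, the platelet integrin αIIb, was 1.61-fold lower with 121, 129 and 125 after siPRMT1 and 201, 201 and 201 after control siRNA (adjusted p = 0.000307), and GP6, the platelet collagen receptor, 1.62-fold higher (adjusted p = 0.0189, lost without any 1 of 5 arrays). P2RX1, ALOX12 and PTGS1 are in none of the lists and were named after their values were seen. P2RX1, the ATP-gated channel of platelets, had 179, 157 and 143 with siPRMT1, against 492, 479 and 464 with control siRNA, 3.01-fold lower (log2 fold change -1.59 ± 0.15, SE, adjusted p = 3.82e-05). ALOX12, platelet 12-lipoxygenase, had 94.3, 94.4 and 97.0 on the siPRMT1 arrays, against 258, 253 and 235 on the control arrays, 2.61-fold lower (log2 fold change -1.38 ± 0.07, SE, adjusted p = 2.70e-07). PTGS1, cyclooxygenase 1, was 2.85-fold lower (adjusted p = 0.00588), although its second probe gave -0.03.

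Metallothioneins, small cysteine-rich proteins that bind zinc and copper, fell together. Of 18 metallothionein and zinc genes 8 were lower and 2 higher (median -0.36), and all 6 metallothioneins tested fell. MT2A had 614, 565 and 575 after siPRMT1 and 4059, 3981 and 4084 after control siRNA, 6.92-fold lower (log2 fold change -2.79 ± 0.34, SE, adjusted p = 0.000272). MT1E had 185, 212 and 175 with siPRMT1, against 678, 817 and 761 with control siRNA, 3.95-fold lower (log2 fold change -1.98 ± 0.13, SE, adjusted p = 1.17e-06). MT1G had 253, 259 and 266 on the siPRMT1 arrays, against 1001, 976 and 1051 on the control arrays, 3.89-fold lower (log2 fold change -1.96 ± 0.14, SE, adjusted p = 2.68e-06). In each, the 3 siPRMT1 arrays lay close together and far below the controls. MT1H and MT1F were 3.09-fold and 1.96-fold lower (adjusted p = 4.28e-07 and 0.000376), and MT1X was 5.97-fold lower with 463, 506 and 437 after siPRMT1 and 2843, 2612 and 2927 after control siRNA (adjusted p = 0.0126, lost without siPRMT1 array 3). The genes are near-identical copies, so probes may share signal and the 6 are not independent measurements.

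The zinc transporters did not follow as a group. SLC30A10, which exports manganese, was 1.74-fold lower (adjusted p = 0.00452), and SLC30A5, which loads zinc into the secretory pathway, 1.32-fold lower (adjusted p = 0.0499, lost without any 1 of 9 arrays). SLC30A1, the zinc exporter that MTF1 also drives, gave 0.18 ± 0.23. Not called either were SLC30A7 (-0.13) and the importers SLC39A3 (-0.37), SLC39A6 (0.17), SLC39A7 (0.11), SLC39A8 (-0.36), SLC39A10 (0.15) and SLC39A14 (0.18), in log2 fold changes. SLC39A1 and the regulator MTF1 were 1.33-fold and 1.47-fold higher (adjusted p = 0.0350 and 0.0233, lost without any 1 of 6 and of 4 arrays).

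The core of the metal response element was searched in its TGCGCNC and TGCACNC forms on both strands. At least 1 of them was in 37.2% of the promoters of genes tested, so a single match is common. Windows of 200 bases are shown for MT2A (chr16:56608434-56608633, plus strand) and MT1X (chr16:56682317-56682516, plus strand), where matches cluster, with both forms in capitals. MT2A held 8 matches in its 300 bases, 5 of them whole within this window, and MT1X held 4, all within it.
MT2A: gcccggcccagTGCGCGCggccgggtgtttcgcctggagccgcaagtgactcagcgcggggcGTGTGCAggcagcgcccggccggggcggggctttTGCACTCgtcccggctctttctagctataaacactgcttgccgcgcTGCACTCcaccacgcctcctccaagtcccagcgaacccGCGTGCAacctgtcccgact
MT1X: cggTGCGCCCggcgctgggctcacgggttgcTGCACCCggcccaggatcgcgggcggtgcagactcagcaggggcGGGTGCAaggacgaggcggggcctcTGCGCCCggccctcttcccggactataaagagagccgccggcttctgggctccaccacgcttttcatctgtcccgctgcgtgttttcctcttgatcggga

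Signalling and quiescence genes also fell. Of 29 genes associated with FOXO factors, which act when growth signalling is low, 11 were lower and 0 higher (median -0.37), and 10 to 14 in single-array leave-outs. BCL6, a transcriptional repressor, had 166, 164 and 129 with siPRMT1, against 661, 741 and 719 with control siRNA, 4.64-fold lower (log2 fold change -2.21 ± 0.13, SE, adjusted p = 4.28e-07). YPEL3 and YPEL5, small zinc-binding proteins, were 3.33-fold and 2.78-fold lower (adjusted p = 0.000314 and 0.000396). PIK3IP1, an inhibitor of PI3 kinase, was 1.91-fold lower (adjusted p = 0.000104), and RBL2, the pocket protein p130 of resting cells, 1.90-fold lower (adjusted p = 0.000385). TXNIP, which limits glucose uptake, had 6395, 8518 and 6668 on the siPRMT1 arrays, against 13451, 11989 and 12350 on the control arrays, 1.76-fold lower (adjusted p = 0.00609). TSC22D3, also called GILZ, had 112, 108 and 125 after siPRMT1 and 275, 273 and 285 after control siRNA, 2.42-fold lower (log2 fold change -1.27 ± 0.12, SE, adjusted p = 4.85e-05), and 1 of its further probes gave 0.02. TSC22D3 was named after its values were seen.

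Of 34 components of the mTORC1 and AMPK pathways 5 were lower and 1 higher (median -0.10). These are 14.7% and 2.94%, against 9.51% and 7.98% over all genes. PRKAB2, a regulatory subunit of AMPK, had 154, 166 and 139 with siPRMT1, against 295, 331 and 323 with control siRNA, 2.07-fold lower (adjusted p = 0.000425). ULK1, the kinase that starts autophagy, was 2.07-fold lower (adjusted p = 0.00111). WIPI1, which binds the growing autophagosome, was 2.29-fold lower (adjusted p = 0.000366). Autophagy and lysosome genes as a list had 3 of 42 higher and 4 lower (median -0.06), near the shares over all genes, and 1 to 5 higher and 2 to 6 lower in single-array leave-outs. CTSZ, a lysosomal carboxypeptidase, rose 2.17-fold with 396, 370 and 669 on the siPRMT1 arrays, against 224, 221 and 192 on the control arrays (adjusted p = 0.00669). Of 32 STAT5 and cytokine genes 7 were lower and 2 higher (median -0.05), and 3 to 4 were lower without control array 1, 2 or 3 or siPRMT1 array 1 or 2. JAK2 was 1.89-fold lower with 134, 179 and 188 after siPRMT1 and 302, 331 and 309 after control siRNA (adjusted p = 0.00721), and DUSP5, a phosphatase of ERK, had 439, 428 and 533 with siPRMT1, against 224, 222 and 232 with control siRNA, 2.06-fold higher (adjusted p = 0.000845).

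Called changes of cell cycle genes were small. Of 41 genes of G2 and mitosis 11 were lower and 0 higher (median -0.15), with 5 to 7 lower in leave-outs of each control array and of siPRMT1 arrays 2 and 3. NUSAP1 and DLGAP5, both spindle proteins, were 1.51-fold and 1.45-fold lower (adjusted p = 0.00335 and 0.00698). Of 44 genes of G1/S and DNA replication 4 were higher and 1 lower (median 0.12). These are 9.09% and 2.27%, against 7.98% and 9.51% over all genes. Single-array leave-outs gave 0 to 6 higher, and MCM2 gave 0.12 ± 0.16. CDKN1A, the CDK inhibitor p21, gave -0.42 ± 0.33 (adjusted p = 0.474), and CDKN1B, p27, -0.37 ± 0.20. CCNG1, a p53-responsive cyclin, was 1.87-fold lower with 3557, 4028 and 4274 on the siPRMT1 arrays, against 7851, 7043 and 7262 on the control arrays (adjusted p = 0.00467).

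Replication-dependent histone genes had 12 of 50 members higher and 1 lower (median 0.19), with 6 or 7 higher without AE9a control array 1 or 3 or siPRMT1 array 1 or 3. H3C4 had 1364, 1196 and 1407 after siPRMT1 and 563, 530 and 519 after control siRNA, 2.46-fold higher (log2 fold change 1.30 ± 0.16, SE, adjusted p = 0.000248). H2BC11 and H4C8 were 2.07-fold and 1.76-fold higher (adjusted p = 0.00687 and 0.00431). H2AC25 had 3465, 2469 and 3171 with siPRMT1, against 7337, 8388 and 8146 with control siRNA, 2.64-fold lower (adjusted p = 0.000472). Histone genes are close copies, so signal may be shared between probes. How the labelling primed histone transcripts was not tested.

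Part of the BCL2 family genes fell. Of 20 BCL2 family genes 6 were lower and 1 higher (median -0.10). Those lower include BNIP3 and BNIP3L, which are also counted among the HIF targets. BCL2L1, also lower, lost its call in 4 single-array leave-outs, and BID, the member that rose, in 5. BCL2L13 and BBC3, the BH3-only protein PUMA, were 1.62-fold and 1.54-fold lower (adjusted p = 0.00221 and 0.00302). MCL1 gave -0.03 ± 0.16. Of 13 genes of death receptors and extrinsic apoptosis 1 was lower and 1 higher (7.69% each, median 0.03), near the shares over all genes. TNFRSF1B, a receptor of tumor necrosis factor, was 1.37-fold higher (adjusted p = 0.0283, lost without any 1 of 5 arrays). TNFRSF10B, the TRAIL receptor DR5 and a target of DDIT3, had 249, 258 and 272 on the siPRMT1 arrays, against 722, 790 and 795 on the control arrays, 2.96-fold lower (log2 fold change -1.57 ± 0.13, SE, adjusted p = 1.69e-05). Of its further probes 1 gave -0.58 (adjusted p = 0.00464) and another -0.03. CD70, a ligand of the TNF family, had 109, 102 and 102 after siPRMT1 and 252, 304 and 286 after control siRNA, 2.69-fold lower (log2 fold change -1.43 ± 0.15, SE, adjusted p = 0.000108), and TP53INP1, a p53 target, was 2.66-fold lower (adjusted p = 0.00142); both were named after their values were seen. Of 25 NRF2 targets and redox enzymes 4 were higher and 3 lower (median 0.03), and 1 to 6 were higher in single-array leave-outs, the lower counts without control arrays 1 to 3 or siPRMT1 array 3. SOD2, mitochondrial superoxide dismutase, was 1.60-fold higher (adjusted p = 0.00726), and ABCC3, an exporter, was at least 2.02-fold lower (adjusted p = 0.000831). NFE2L2, which encodes NRF2, gave 0.02 ± 0.18.

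Large families were counted as well. Of 359 zinc finger genes of the ZNF series 22 were higher and 39 lower (median 0.01), or 6.13% and 10.9%. Of 217 solute carriers 18 were higher and 31 lower (median 0.00), or 8.29% and 14.3%, against 7.98% and 9.51% over all genes. Among them were SLC5A6, the biotin and pantothenate importer (2.54-fold higher, adjusted p = 0.000507), and SLC67A1 (2.82-fold lower, adjusted p = 0.000522). Of 193 small nucleolar and Cajal body RNAs 14 were higher and 2 lower (median 0.08). These are 7.25% and 1.04%, both below the shares over all genes. SNORA61 had 2384, 2147 and 1840 with siPRMT1, against 1043, 1070 and 1106 with control siRNA, 1.97-fold higher (adjusted p = 0.000560). How the labelling primed these small RNAs was not tested. Of 49 histone and chromatin modifiers 3 were higher and 5 lower, or 6.12% and 10.2%, near the shares over all genes. Leaving out 1 array gave 0 to 3 of them higher and 2 to 8 lower. Of 33 proteasome subunits 6 were higher and 1 lower (median 0.25), or 18.2% and 3.03%. Single-array leave-outs gave 5 to 31 zinc finger genes higher and 19 to 49 lower, 8 to 27 solute carriers higher and 17 to 36 lower, 4 to 23 small RNAs higher, and 1 to 12 proteasome subunits higher. The lowest of these counts came from leaving out AE9a arrays. Interferon-stimulated and MHC class I genes had 0 of 27 higher and 1 lower, IRF9 (1.48-fold, adjusted p = 0.0123, lost without control array 2 or 3 or siPRMT1 array 3).

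Among the remaining strong changes, S100P, a calcium-binding protein, had the smallest adjusted p of the comparison. It had 70.4, 65.2 and 63.2 on the siPRMT1 arrays, against 259, 270 and 280 on the control arrays, and with no siPRMT1 array above background it was at least 3.14-fold lower (adjusted p = 3.60e-09). CCPG1, an autophagy receptor of the endoplasmic reticulum, had 268, 300 and 265 after siPRMT1 and 841, 813 and 823 after control siRNA, 2.98-fold lower (log2 fold change -1.58 ± 0.10, SE, adjusted p = 1.17e-06). TM6SF1, a lysosomal membrane protein, had 97.4, 96.2 and 98.3 with siPRMT1, against 343, 351 and 354 with control siRNA, 3.59-fold lower (log2 fold change -1.84 ± 0.19, SE, adjusted p = 8.29e-05). TF, transferrin, had 331, 363 and 315 on the siPRMT1 arrays, against 1175, 1127 and 1099 on the control arrays, 3.38-fold lower (adjusted p = 0.00129). TUBB2B fell 3.26-fold with 800, 684 and 488 after siPRMT1 and 2084, 2083 and 2122 after control siRNA (adjusted p = 0.00145), while its neighbour TUBB2A rose 1.70-fold with 2050, 1828 and 2437 with siPRMT1, against 1291, 1147 and 1259 with control siRNA (adjusted p = 0.00597). These tubulins are close in sequence, and the probes read them in opposite directions. The hexosamine enzymes GFPT1 and OGT, which make and attach N-acetylglucosamine, were each 2.05-fold lower (adjusted p = 0.000222 and 0.00328). PNCK, a calcium and calmodulin-dependent kinase, had the deepest fall, 9.95-fold with 708, 556 and 200 on the siPRMT1 arrays, against 3909, 4523 and 4380 on the control arrays (adjusted p = 0.000920), and its siPRMT1 arrays spread over a more than 3-fold range.

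Among the rises, CCDC86, a nucleolar protein, had 1887, 1844 and 2155 after siPRMT1 and 715, 893 and 730 after control siRNA, 2.52-fold higher (log2 fold change 1.34 ± 0.15, SE, adjusted p = 0.000154). DNLZ, the partner of mitochondrial HSP70, had 1207, 998 and 1261 with siPRMT1, against 457, 461 and 473 with control siRNA, 2.48-fold higher (log2 fold change 1.31 ± 0.14, SE, adjusted p = 0.000112). RCC1, the nucleotide exchange factor of RAN, had 1213, 1378 and 1838 on the siPRMT1 arrays, against 601, 609 and 602 on the control arrays, 2.41-fold higher (adjusted p = 0.00182). DANCR, a noncoding RNA, was 2.44-fold higher with 3268, 3016 and 3569 after siPRMT1 and 1317, 1267 and 1456 after control siRNA (adjusted p = 0.00118). NEFH, a neurofilament chain, had 526, 496 and 695 with siPRMT1, against 165, 167 and 155 with control siRNA, the largest rise at 3.49-fold (log2 fold change 1.80 ± 0.20, SE, adjusted p = 0.000117). In each of these genes every siPRMT1 array lay above every control array, as in 1107 of the 1111 genes called higher. VGF, a secretory granule protein, was 3.26-fold higher with 2442, 1741 and 2329 on the siPRMT1 arrays, against 632, 666 and 680 on the control arrays (adjusted p = 0.00940). RNA28SN5, a 28S rRNA sequence, and RN7SK, the noncoding RNA that holds P-TEFb inactive, were 2.38-fold and 1.95-fold higher (adjusted p = 0.00718 and 0.00222). Neither RNA is polyadenylated, and how the labelling primed them was not tested. GAL, the neuropeptide galanin, had 1104, 948 and 822 after siPRMT1 and 474, 433 and 445 after control siRNA, 2.11-fold higher (adjusted p = 0.000219). FABP5, a fatty acid carrier, was 2.07-fold higher (adjusted p = 0.000615), and ALDH1B1, a mitochondrial aldehyde dehydrogenase, 2.21-fold (adjusted p = 0.000912).

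The effects were set against those of the same siRNA in wild type K562 cells, which share no array with the AE9a groups and were normalised and fitted with them. In wild type cells limma called 0 of 13929 genes at an adjusted p of 0.05. Before adjustment, p was under 0.05 for 1291 of them. Same-numbered wild type arrays deviated together, and with the replicate number as a block 0 genes were called over all 12 arrays (1519 before adjustment) and 0 over the wild type arrays alone (1477 before adjustment). The median absolute log2 fold change was 0.15 in AE9a cells and 0.10 in wild type cells, and the median SD within a group was 0.10 and 0.08 in AE9a cells given siPRMT1 and control siRNA, against 0.11 and 0.13 in wild type cells. The difference between the lines passed its own test for 54 genes with a more positive effect in AE9a cells (0.388%) and 106 with a more negative one (0.761%). Of these, 52 and 105 were also called in AE9a cells in that direction, and 32 of the 160 were above background on no wild type array. At probe level 260 probes passed, and 83 to 349 when single arrays were left out. They were 94 without wild type siPRMT1 array 2, 114, 99 and 83 without AE9a control arrays 1, 2 and 3, and 143, 143 and 92 without AE9a siPRMT1 arrays 1, 2 and 3. With the replicate number as a block over all 12 arrays 402 probes passed.

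S100P was above background on the 3 AE9a control arrays alone, so its effect in wild type cells could not be measured. DDIT4, an inhibitor of mTORC1, had 3004, 2668 and 2287 with siPRMT1, against 12849, 13662 and 12980 with control siRNA in AE9a cells. Its effect was -2.32 there and 0.43 in wild type cells, a difference of -2.75 (adjusted p = 4.31e-05). CTH had a difference of -1.93 (adjusted p = 0.000816), ASNS of -1.48 (adjusted p = 0.000446) and IDH1 of -1.74 (adjusted p = 0.000744). The metallothionein MT1E differed by -2.03 (adjusted p = 0.000129). These 5 differences kept an adjusted p under 0.05 in each leave-out of 1 of the 12 arrays.

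Fewer differences were positive. UTP15 gave 0.87 in AE9a and -0.01 in wild type cells (difference 0.88, adjusted p = 0.0117, lost in 1 leave-out). H3C4 differed by 1.43 (adjusted p = 0.00780). H2AJ and H2AC20, histone H2A genes, were higher in AE9a cells at 0.60 and 0.51, against -1.003 and -0.816 in wild type cells, where neither passed the test, differences of 1.61 and 1.32 (adjusted p = 0.00209 and 0.00294). The AE9a calls of H2AJ and H2AC20 were lost without siPRMT1 array 3 and without 2 and 1 of the control arrays. Of the ribosome assembly lists, 3 of 47 small-subunit and 2 of 47 large-subunit members had a more positive effect in AE9a cells, although the medians were 0.58 and 0.52 there against 0.16 and 0.14 in wild type cells. Of the stress response effectors 6 of 17 had a more negative effect, with medians of -0.84 in AE9a and -0.10 in wild type cells. PRMT1 itself gave -0.61 ± 0.16 in AE9a and -0.46 ± 0.16 in wild type cells (difference -0.14, adjusted p = 0.852).

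**Figure D5:**
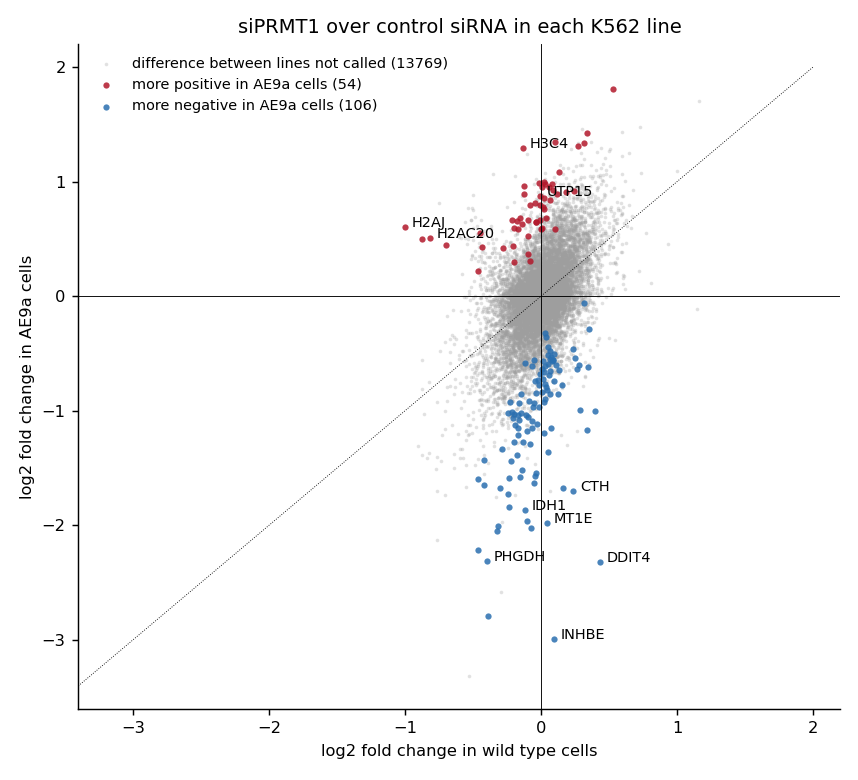
Log2 fold change of siPRMT1 over control siRNA in AE9a cells (y axis) against that in wild type K562 cells (x axis) for 13929 genes; red points have a more positive and blue points a more negative effect in AE9a cells by the test of the difference, and the dotted line marks equal effects. The blue points reach -2.99 in AE9a cells at INHBE, and H2AJ and H2AC20 lie at the upper left.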

How the data were processed

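Total RNA of K562 cells was labelled as biotinylated cRNA and hybridised to Illumina BeadChips, 1 array a sample, per the labels' protocols. The deposited table holds non-normalised probe intensity values, and GenomeStudio is named in the submitters' processing notes, its version and role not given in the sources used here. The authors' processed table was used as an alternative source. Gene names came from the platform annotation: 30113 of 47231 probes had 1 symbol.

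All 12 arrays were background-corrected with normexp (offset 50), quantile normalised and log2 transformed in limma 3.58.1 under R 4.3.3. Probes with a mean above the 40th percentile were tested (28338 probes, 13929 genes), with 1 mean a group and moderated variances (eBayes with a trend). Benjamini-Hochberg adjustment ran over all tested probes, and calls used an adjusted p under 0.05. Each gene was read from its brightest probe. Printed intensities are normalised values on the linear scale. Background was the 95th percentile of 437 olfactory receptor probes. Where 1 group was above it on no array, the fold is a lower bound. The pipeline was tested on simulated data.

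The lists, members and motifs were chosen with earlier results of these data known. Lists can share members, among them DDIT4, ULK1, BCL6, KDM3A, BNIP3 and RRS1, so counts of different lists are not independent. Named genes are PRMT1, key list members, the 20 largest rises and the 20 largest falls among called genes with separated groups, up to 6 called members a list by smallest adjusted p, all metallothionein list members, and genes added after their values were seen. Same-numbered AE9a arrays did not deviate together (r = -0.20, -0.30 and 0.00 across probes). Those of the wild type line did (0.58, 0.28 and 0.54). Promoter sequences are RefSeq's, GRCh38.p14.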

Additional observations from a re-analysis of the deposited data

Results flagged for a closer look

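The siPRMT1 effect of the genes below differed between the AE9a and the wild type line by limma's test of that difference, fitted over all probes (adjusted p under 0.05). Values in parentheses are the AE9a effect minus the wild type effect, in log2 units, with 3 arrays in each of the 4 groups. The genes are a part of the 160 whose difference passed, and leave-outs of the difference were read for named genes only.

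Genes with a more negative effect in AE9a cells, whose difference passed in each leave-out of 1 of the 12 arrays, were INHBE (-3.08), DDIT4 (-2.75), MT1E (-2.03), S100P (-1.96), CTH (-1.93), PHGDH (-1.91), MT1G (-1.85), BCL6 (-1.75), IDH1 (-1.74), ARG2 (-1.73), KLHL24 (-1.69), TM6SF1 (-1.61), MT1H (-1.58), TNFRSF10B (-1.52), PSAT1 (-1.51), ASNS (-1.48), CCPG1 (-1.42), P2RX1 (-1.36), ALOX12 (-1.21), WARS1 (-1.21), CEBPG (-1.14), TSC22D3 (-1.08), AARS1 (-0.926) and PADI4 (-0.646). ZNF362 also passed in each, with differences of -0.65 to -0.59 over the leave-outs, but it was above background on no wild type array. Among the named genes, those with a more positive effect that passed in each were H2AJ (1.61), H3C4 (1.43) and H2AC20 (1.32).

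The difference did not pass in at least 1 such leave-out for the more negative MT2A (-2.40), TRIB3 (-1.83), ATF3 (-1.50), PCK2 (-1.41), CHAC1 (-1.40), PSPH (-1.28), GDF15 (-1.23), DDIT3 (-1.21), MTHFD2 (-1.09), BCAT1 (-1.08), CD70 (-1.01), GARS1 (-0.976), MT1F (-0.957), RBL2 (-0.875), GFPT1 (-0.872), LONP1 (-0.824), PIK3IP1 (-0.771), CBS (-0.770), SHMT2 (-0.707), ITGA2B (-0.672) and SCD (-0.649), and for the more positive NEFH (1.27), RN7SK (1.09), DNLZ (1.04), CCDC86 (1.02), TWNK (0.947), GAL (0.947), SNORA61 (0.897), RRP9 (0.892), UTP15 (0.879), PPRC1 (0.874), HSPA4 (0.830) and UTP20 (0.767). S100P, PADI4 and CHAC1 were above background on no AE9a siPRMT1 array, and S100P, ALOX12 and MT1H on no wild type array, so the sizes of these 5 differences are not measured exactly. Those of MT1G, ITGA2B and TSC22D3 rest on wild type cells with 1 of 6 arrays above background, as does that of PADI4. In each wild type group TM6SF1 was above background on 1 array and MT1F on 2. The labels do not say whether the lines share a parent culture, and AE9a and the history of the line cannot be told apart.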

How the results depend on the processing

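The counts of genes higher and lower were 1959 and 2085 with AE9a arrays alone and 2022 and 2208 with array weights, against 1111 and 1325. Single-array leave-outs gave 539 to 1486 genes higher, 762 to 1662 lower and 83 to 349 probes differing between lines, and a PRMT1 log2 fold change of -0.69 to -0.55. Array weights gave 455 differing probes. With the replicate block over all arrays there were 1292 genes higher, 1488 lower and 402 differing probes, and PRMT1 kept its call. In wild type cells 0 genes were called with and without the block, an alternative added after seeing the data, and 0 with the wild type arrays alone (633 before adjustment). Of 379 called named genes beside PRMT1, 377 kept the call under that block, 357 with median scaling, 366 with the mean of a gene's probes and 291 without siPRMT1 array 3, the lowest number of any setting.

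EWSR1, called lower on its brightest probe, gave 0.015 as the mean of its probes. The other sign changes were in genes not called. Median scaling gave -0.022 for MAF1 and -0.0088 for NFE2L2, and the authors' processed values -0.011 for NFE2L2 and 0.0063 for HBG1. The mean of a gene's probes gave 0.19 for MCL1 and -0.011 for PRMT2. Single-array leave-outs gave both signs for MAF1 (-0.051 to 0.060), NFE2L2 (-0.053 to 0.087), EGR1 (-0.48 to 0.22), SLC39A7 (-0.0073 to 0.18), MCM2 (-0.0061 to 0.20), MYB (-0.16 to 0.061), HBG1 (-0.056 to 0.032), MCL1 (-0.092 to 0.037) and PRMT2 (-0.072 to 0.12). The cause of these shifts was not tested. The number of arrays, 3 a group, limits the precision, and probes near background have only a bound.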
